A study of Homo sapiens with 4 samples.

Results

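The human mitochondrial ribosome is described here through the cassette exons of its protein genes, in a breast cancer line transfected with the SSE mimetic, called the mimetic here, or with a scrambled oligo. Genes were those annotated in GENCODE release 29 as protein-coding with a symbol that starts with MRPL (large subunit) or MRPS (small subunit) followed by a number. There were 78, of which 49 belong to the large and 29 to the small subunit. A skipped-exon event was taken as a member when its skipped exon had the coordinates of an exon of such a gene on the same strand, or when both of its flanking exons did. This gave 119 of the 45977 events present in both deposited summaries, 4 of them through the flanking exons alone. They lie in 49 genes (36 large subunit, 13 small subunit), and the other 29 genes had no event in both summaries. Events that share a skipped exon were reduced to the one with the most informative reads, which left 103 exons of 39120 in all.

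All samples were MDA-LM2 cells, a lung-metastatic derivative of the human breast cancer line MDA-MB-231, and all were transfected by lipofection. One group received an RNA named the SSE mimetic and the other a scrambled oligo, with 2 samples per group and 4 in all. The comparison asks how exon usage differs after transfection of the mimetic. No dose, time or culture of origin is given for the samples in the sources used here. The deposited tables hold 1 pooled value per group, so no value per sample, no spread between replicates and no test across samples exist for any result below.

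Mitochondrial ribosomes translate the few mRNAs encoded in mitochondrial DNA, all of which specify subunits of the respiratory chain and ATP synthase. Their RNAs come from the mitochondrial genome, but all of their proteins are encoded in the nucleus, translated in the cytosol and imported. The transcripts of these nuclear genes are therefore spliced like any other, and most of their exons are constitutive. Percent spliced in (Ψ) is the fraction of transcripts that keep a cassette exon, here the authors' posterior mean with a 95% credible interval. Isoform-specific reads are those that match only the form with the exon (inclusion reads) or only the form without it (skipping reads). Shared reads match both forms, and the remaining reads over an event match neither.

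Depth differed between the groups. Over the 119 events, isoform-specific reads summed to 1245 for the mimetic and 7273 for the scrambled oligo, a ratio of 5.84 against 4.73 over all events of the tables. Reads that match neither form made up 92.7% and 81.6% of reads over these events, and 95.3% and 88.8% over all events. Among markers of MDA-MB-231-like cells, CD44, EGFR, AXL, ANXA1 and LGALS1 had events with 10 or more isoform-specific reads per group, while VIM and CAV1 had no event. Of the markers of other cell types with an event, KRT8 (at most 88 and 340 reads for an event), DCN (18 and 27) and PTPRC (10 and 14) reached 10 reads in both groups. CDH1, ESR1 and GATA3 had at most 8, and CD3E had none. EPCAM, KRT18, HBB, COL1A1 and PECAM1 had no event and could not be checked.

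The following exon sequences are shown for the members the results turn on, 5′ to 3′ on the strand of the gene, from GENCODE release 29 transcripts on hg38. MRPL33 and MRPS27 had the largest differences in each direction among exons with enough reads to be tested, MRPS5 and MRPL11 had a Ψ from 0.1 to 0.9 (bounds included) in the scrambled group, and MRPS11 and MRPL52 have forms that differ at an end. For MRPS11 and MRPL52 capitals mark the bases that the shorter form lacks, and the other sequences have no capitals. MRPL33, MRPS27, MRPS11 and the MRPL52 exon were added after their values were seen.
MRPL33 coding exon, chr2:27774424-27774530, plus strand: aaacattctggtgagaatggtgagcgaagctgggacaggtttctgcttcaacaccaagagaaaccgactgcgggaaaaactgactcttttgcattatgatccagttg
MRPS27 noncoding-transcript exon, chr5:72227050-72227275, minus strand: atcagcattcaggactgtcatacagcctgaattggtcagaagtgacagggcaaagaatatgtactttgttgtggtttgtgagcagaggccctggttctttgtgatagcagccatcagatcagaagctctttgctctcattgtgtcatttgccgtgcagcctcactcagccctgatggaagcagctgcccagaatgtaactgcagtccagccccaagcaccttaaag
MRPS5 coding exon, chr2:95104640-95104730, minus strand: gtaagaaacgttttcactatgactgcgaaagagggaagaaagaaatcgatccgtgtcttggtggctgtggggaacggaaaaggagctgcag
MRPL11 coding part of the alternative exon, chr11:66436840-66436909, minus strand: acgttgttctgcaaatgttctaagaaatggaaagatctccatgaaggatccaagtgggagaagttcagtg
MRPS11 longer form, chr15:88472627-88472725, plus strand: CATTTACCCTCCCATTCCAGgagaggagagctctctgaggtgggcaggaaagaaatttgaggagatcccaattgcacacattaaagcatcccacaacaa
MRPL52 longer form, chr14:22833418-22833489, plus strand: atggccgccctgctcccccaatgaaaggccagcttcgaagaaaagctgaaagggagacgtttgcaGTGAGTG

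No exon of a mitochondrial ribosomal protein gene passed the criteria for a difference. A call required a Bayes factor (how strongly the reads favour a difference over none, in the authors' deposited table) of at least 10, a difference in Ψ of at least 0.1 and 10 or more isoform-specific reads per group. With that read minimum 47 exons in 33 genes were tested, 36 of the large subunit in 24 genes and 11 of the small subunit in 9 genes. Of these, 0 were called higher and 0 lower after the mimetic, where the background over all 8228 tested exons was 3.99% in either direction, 3.10% higher and 0.887% lower. A count of 0 in 47 allows a share of up to 6.38% (3 counts of the total), so these exons cannot be told from the background by this count. The highest Bayes factor among them was 6.46, and 2 exons, in MRPS27 and MRPL33, exceeded 1.

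The other readings of the tables gave no call either. Fisher's exact test on inclusion and skipping reads, which compares the read pools and not the conditions, gave 0 of 47 with an adjusted p under 0.05 (Benjamini-Hochberg over all tested exons), against a background of 1.01%. At an unadjusted p under 0.05 the count was also 0 of 47, against 453 of 8228 (5.51%). The credible intervals of the groups did not overlap in 0 of 47 exons and in 483 (5.87%) of all tested exons. Nevertheless 17 of the 47 exons (36.2%) differed by 0.1 or more in Ψ, close to the 36.9% of all tested exons. In difference intervals recomputed from the deposited reads, 45 of the 47 held 0, and 14 lay wholly within 0.2 of it.

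**Figure D1:**
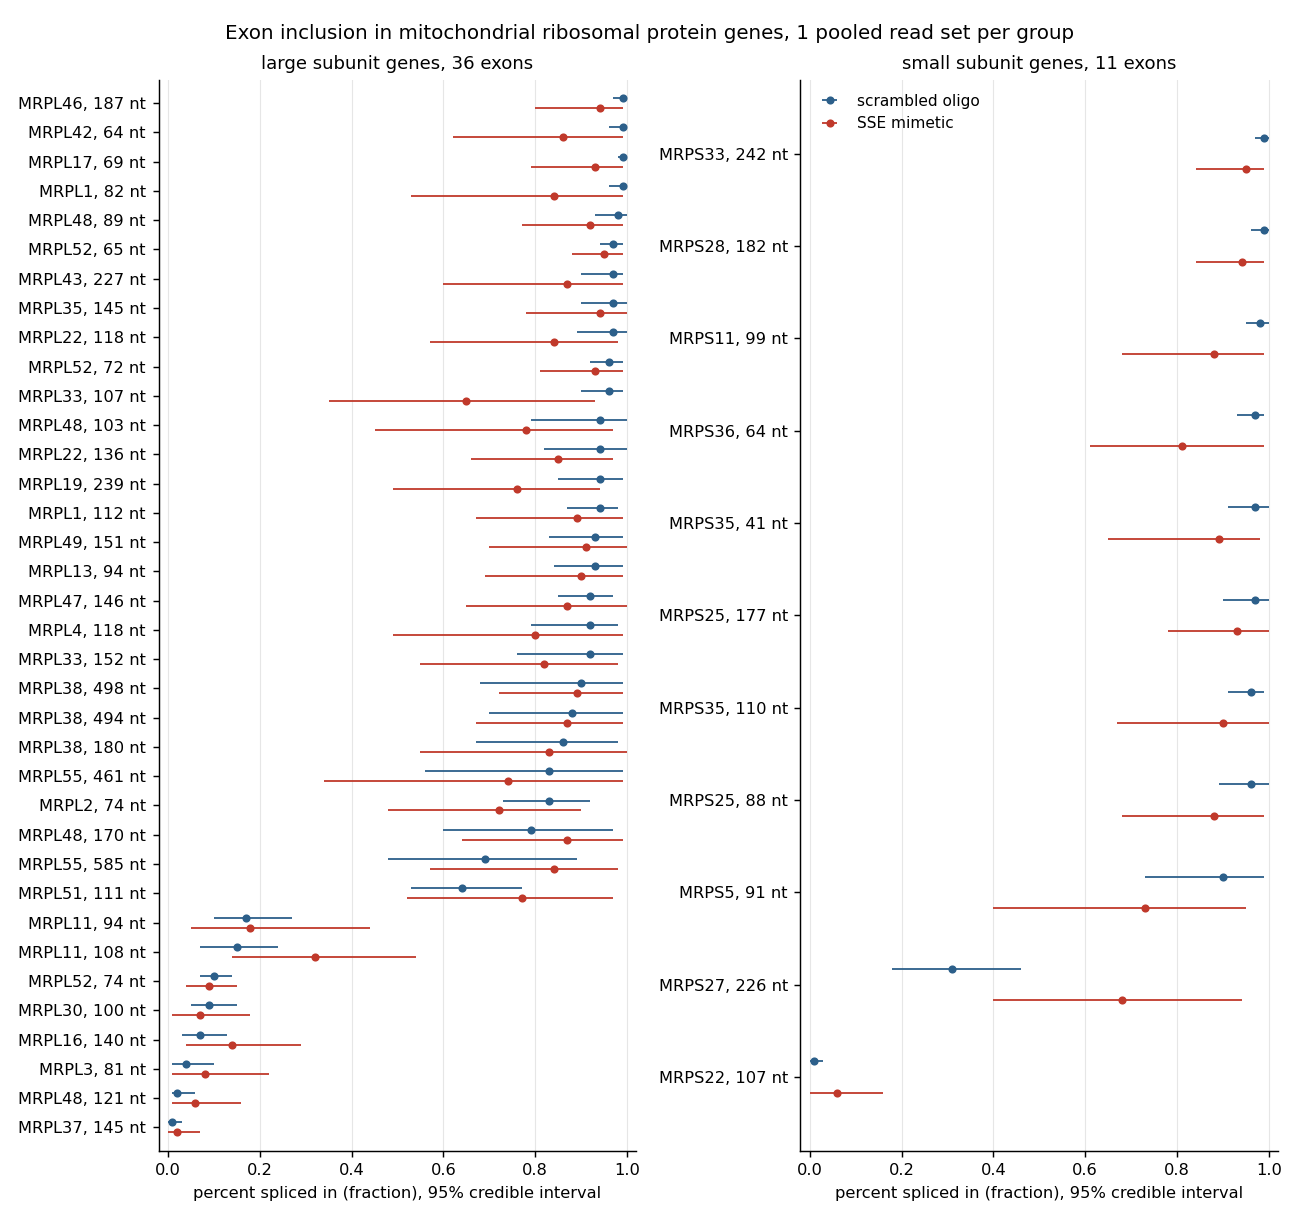
Percent spliced in of the 47 tested exons (x axis, fraction) with 95% credible intervals, for the scrambled oligo (blue) and the SSE mimetic (red), by gene and exon length, large subunit left and small subunit right, ordered by the scrambled value. Each point is 1 pooled read set, the SSE mimetic intervals are wider (median width 0.32 against 0.10), and in every exon the intervals of both groups overlap.

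Most of these exons were kept in nearly all transcripts. With the scrambled oligo 30 of the 47 exons (63.8%) had a Ψ of at least 0.9, against 48.2% of all tested exons, while 10 lay between 0.1 and 0.9 and 7 at or below 0.1. The median Ψ was 0.84 after the mimetic and 0.93 after the scrambled oligo. The difference, SSE mimetic minus scrambled oligo, had a median of -0.05 (quartiles -0.10 and -0.01, range -0.31 to 0.37), with 36 exons below 0 and 11 above. Over all tested exons the median was -0.03 (quartiles -0.09 and 0.03). By subunit the median was -0.03 for the large and -0.06 for the small subunit.

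**Figure D2:**
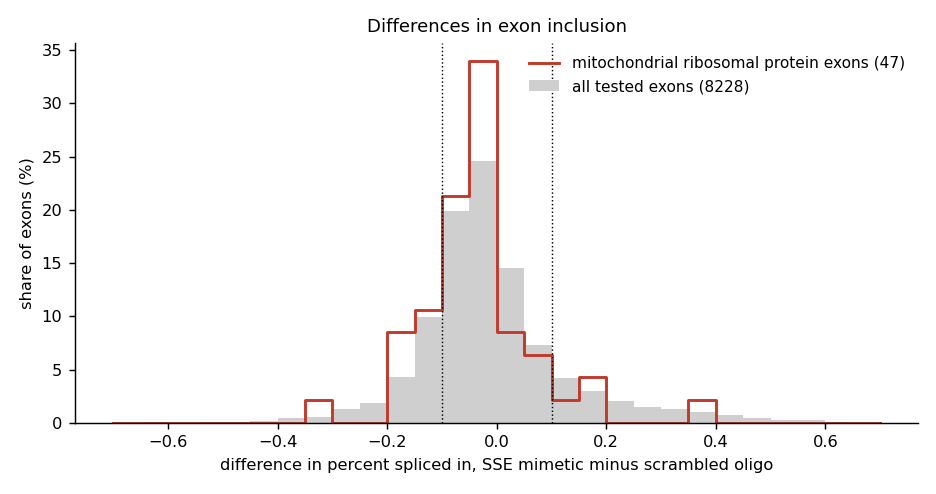
Distribution of the difference in percent spliced in (x axis, SSE mimetic minus scrambled oligo, bins of 0.05) as a share of exons in percent, for the 47 exons of mitochondrial ribosomal protein genes (red line) and all 8228 tested exons (grey bars). Dotted lines mark the minimum size of 0.1 for a call, and 34.0% of the red distribution lies in the bin just below 0, against 24.6% of the grey one.

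The largest difference among tested exons was in MRPS27, a small subunit protein with pentatricopeptide repeats. Its 226 nt exon (chromosome 5, 72227050 to 72227275), annotated only in a noncoding transcript, had a Ψ of 0.68 (0.40 to 0.94) after the mimetic and 0.31 (0.18 to 0.46) after the scrambled oligo. It had 11 inclusion, 1 skipping and 4 shared reads after the mimetic, and 20, 12 and 21 after the scrambled oligo. The value was higher after the mimetic, but the credible intervals overlapped, the Bayes factor was 6.46, and the exact Fisher p was 0.0748 (adjusted 1.00). The read density of the flanking introns alone, spread over the length of the exon, would give 14.6 and 36.1 reads, above the inclusion reads in both groups. With that density subtracted, the recomputed Ψ was 0.29 against 0.04.

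The largest tested difference in the other direction was in MRPL33, a small protein of the large subunit in which an internal exon is known to be alternatively spliced. This 107 nt coding exon (chromosome 2, 27774424 to 27774530, exon 3 of 4) had a Ψ of 0.65 (0.35 to 0.93) after the mimetic and 0.96 (0.90 to 0.99) after the scrambled oligo. The reads behind it were 11 inclusion, 1 skipping and 29 shared after the mimetic, and 117, 1 and 90 after the scrambled oligo. The lower value after the mimetic therefore rests on 1 skipping read in each group and on the ratio of shared to inclusion reads. The difference of -0.31 had a Bayes factor of 2.12 and did not pass, and the interval recomputed from the reads was -0.60 to -0.04. The difference was -0.28 when the scrambled reads were scaled to the SSE mimetic total and -0.35 with the intron read density subtracted.

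Other large subunit exons with large differences also fell short of a call. MRPL19, at 0.76 (0.49 to 0.94) against 0.94 (0.85 to 0.99), had 20 inclusion and 0 skipping reads after the mimetic and 181 and 1 after the scrambled oligo. The 103 nt exon of MRPL48, on chromosome 11 from 73859907, was at 0.78 (0.45 to 0.97) against 0.94 (0.79 to 1.00). The 82 nt exon of MRPL1, a protein of the mobile stalk next to the tRNA exit site, was at 0.84 (0.53 to 0.99) against 0.99 (0.96 to 1.00). In all of these the SSE mimetic value was lower and had 20 or fewer isoform-specific reads. MRPL42 (0.86 against 0.99) and the 118 nt form of MRPL22 (0.84 against 0.97), which encodes a protein lining the exit tunnel, each differed by -0.13. Their skipping reads were 0 in both groups, and their inclusion reads were 11 and 168 for MRPL42 and 26 and 103 for MRPL22.

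Among tested small subunit exons, MRPS5 and MRPS36 had the largest differences after MRPS27. The 91 nt exon of MRPS5, the mitochondrial counterpart of bacterial protein S5, was at 0.73 (0.40 to 0.95) against 0.90 (0.73 to 0.99), from 20 and 113 inclusion reads without a skipping read in either group. The 64 nt exon of MRPS36 was at 0.81 (0.61 to 0.99) against 0.97 (0.93 to 0.99), with 13 inclusion and 1 skipping reads against 177 and 3. Despite its symbol, MRPS36 is now known as a subunit of the 2-oxoglutarate dehydrogenase complex rather than of the ribosome. Neither difference (-0.17 and -0.16) had a Bayes factor above 0.59.

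The exons with the most reads, among them the MRPL19 exon above, included several near full inclusion in both groups. The 65 nt exon of MRPL52 (chromosome 14, 22833418 to 22833482), a large subunit protein, had 55 inclusion and 1 skipping reads after the mimetic and 150 and 3 after the scrambled oligo, for a Ψ of 0.95 (0.88 to 0.99) against 0.97 (0.94 to 0.99). MRPL17 was at 0.93 (0.79 to 0.99) against 0.99 (0.98 to 1.00), with 30 and 195 inclusion reads and no skipping read. MRPL35, with 45 and 231 inclusion reads, was at 0.94 against 0.97, and the 187 nt exon of MRPL46, with 27 and 207, at 0.94 against 0.99. All 4 exons were thus at 0.93 or more in both groups. After the mimetic, the intervals of MRPL17, MRPL35 and MRPL46 reached down to 0.79, 0.78 and 0.80. Among the small subunit genes MRPS33 (0.95 against 0.99), MRPS28 (0.94 against 0.99), the 110 nt exon of MRPS35 (0.90 against 0.96) and the 99 nt exon of MRPS11 (0.88 against 0.98) had lower values after the mimetic, as had the 146 nt exon of MRPL47 (0.87 against 0.92). Of these 5 exons, those of MRPL47 and MRPS35 had skipping reads (5 and 2), and only after the scrambled oligo. The MRPS28 and MRPL46 exons also lie in another annotated gene of the same strand, so their reads could come from either.

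Exons with a Ψ from 0.1 to 0.9 after the scrambled oligo, bounds included, and at least 50 isoform-specific reads there numbered 7 in 6 genes, and none was called. Of these, the MRPS5 exon above (0.90) and the 74 nt exon of MRPL52 (0.10) lie on the bounds and are also counted with the exons at 0.9 or more and at 0.1 or less. The 74 nt exon of MRPL52 (chromosome 14, 22830964 to 22831037) was the best measured of them and was mostly skipped. Its reads were 8 inclusion and 41 skipping after the mimetic and 31 and 123 after the scrambled oligo, and Ψ was 0.09 (0.04 to 0.15) against 0.10 (0.07 to 0.14). The recomputed difference of -0.01 had an interval of -0.08 to 0.06, one of 3 member intervals that lay wholly within 0.1 of 0. The 111 nt exon of MRPL51 (chromosome 12, 6492862 to 6492972) was at 0.77 (0.52 to 0.97) against 0.64 (0.53 to 0.77). It had 35 and 151 inclusion reads, no skipping read, and 150 and 788 shared reads. Its flanking introns, at their read density, would give 29.7 and 176 reads over its length, so its inclusion reads were near the intron level in both groups. With that density subtracted no isoform-specific read was left in the scrambled group, and the recomputed Ψ, from the shared reads there, was 0.58 against 0.04 with a Bayes factor above 10.

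MRPL11, a protein at the base of the stalk that recruits translation factors, has an alternative exon with 2 forms that differ by 14 nt. The 108 nt form (chromosome 11, 66436802 to 66436909) was at 0.32 (0.14 to 0.54) after the mimetic and 0.15 (0.07 to 0.24) after the scrambled oligo, from 6 inclusion and 8 skipping reads against 11 and 44. The 94 nt form (66436816 to 66436909) was at 0.18 (0.05 to 0.44) against 0.17 (0.10 to 0.27), from 2 inclusion reads against 13 and the same skipping reads. The forms thus had different differences, 0.17 and 0.01, on a handful of reads that both share in part. At their read density the flanking introns would give 6.36 and 19.3 reads over the 108 nt form. Over the 94 nt form they would give 5.87 and 16.3 reads. The inclusion reads of both forms were thus below the intron level in both groups. With that density subtracted, the recomputed Ψ was 0.09 against 0.02 for both forms, with differences of 0.07 and 0.08. In MRPL48, which encodes another large subunit protein, the 170 nt exon, on chromosome 11 from 73844807, was at 0.87 (0.64 to 0.99) against 0.79 (0.60 to 0.97). This exon had 28 and 82 inclusion reads, 9 and 61 shared reads and no skipping read in either group. Its values thus rest on the ratio of inclusion to shared reads. The 585 nt 5′ UTR exon of MRPL55 was at 0.84 (0.57 to 0.98) against 0.69 (0.48 to 0.89), from 15 inclusion and 0 skipping reads against 47 and 3. Its flanking introns, at their read density, would give 57.3 and 138 reads over its length, above the inclusion reads in both groups.

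A set of 7 tested exons was nearly always skipped after the scrambled oligo, at a Ψ of 0.1 or less. Besides the MRPL52 exon they were in MRPL37 (0.02 after the mimetic against 0.01), MRPL48 (121 nt 5′ UTR exon, 0.06 against 0.02), MRPL3 (81 nt, 0.08 against 0.04), MRPL16 (0.14 against 0.07), MRPL30 (0.07 against 0.09) and MRPS22 (107 nt exon of a decay transcript, 0.06 against 0.01). Of the 7, 5 had a higher Ψ after the mimetic, and all differences were 0.07 or smaller. MRPL37 had the most skipping reads among them after MRPL52, 28 and 90, with 0 and 1 inclusion reads. Over all tested exons at 0.1 or less after the scrambled oligo, 912 of 1042 were higher after the mimetic and 7.77% were called higher. Both sets were picked by a low scrambled value, so the direction alone cannot show a change where the mimetic group has fewer reads.

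All 30 exons with a Ψ of at least 0.9 in the scrambled group had a lower value after the mimetic, with a median difference of -0.07 (range -0.31 to -0.01). The same was seen over all tested exons of that kind, of which 3752 of 3965 were lower, also with a median of -0.07. Both sets were picked by a high scrambled value, so a lower value in the group with fewer reads cannot by itself show a change. Of the 30 exons, 20 had no skipping read in either group. The share of skipping reads was close in both groups. Summed over the 30 exons they were 4 of 664 isoform-specific reads after the mimetic (0.602%) and 23 of 4082 after the scrambled oligo (0.563%), and 26 of the 30 had no skipping read after the mimetic. When the scrambled reads were scaled to the SSE mimetic total and Ψ recomputed, 20 of the 30 differences were below 0, 8 above and 2 at 0, with a median of -0.02. The scale of 0.254 was that of all events. The 30 exons had a wider gap in isoform-specific reads, so their depth was not made equal. Over all 47 tested exons the inclusion share of isoform-specific reads was larger after the mimetic in 14, smaller in 8 and equal in 25, and the 25 had no skipping read in either group.

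**Figure D3:**
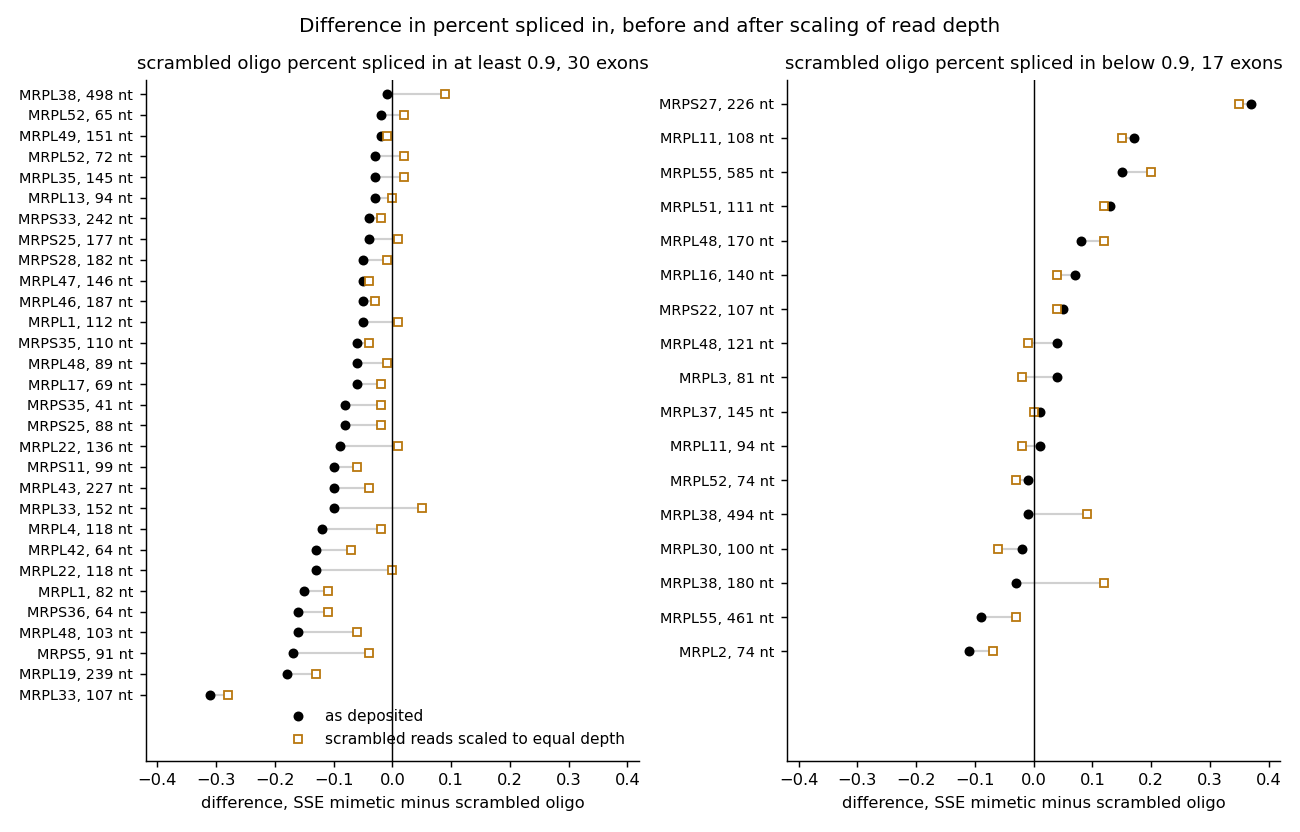
Difference in percent spliced in (x axis, SSE mimetic minus scrambled oligo) of each tested exon as deposited (black points) and recomputed with the scrambled reads scaled to the SSE mimetic total (open squares), for exons with a scrambled value of at least 0.9 (left, 30 exons) and below 0.9 (right, 17 exons). In the left panel the median goes from -0.07 to -0.02, while MRPL33 stays at -0.28 and, in the right panel, MRPS27 at 0.35. The scale is that of all events and does not make the depth of each exon equal.

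Exon levels differed by the kind of transcript that holds the exon. Coding exons made up 52 of the 103 exons and had a median Ψ of 0.94 after the scrambled oligo, over those with at least 10 isoform-specific reads there. Their summed skipping reads were 22 of 738 isoform-specific reads after the mimetic (2.98%, exact 95% interval 1.88 to 4.48) and 161 of 4800 after the scrambled oligo (3.35%, 2.86 to 3.90), and these intervals overlap. Most of the tested coding exons would shift the reading frame if left out: 24 of 30 have a length that is not a multiple of 3. These intervals cover counting error only, and some exons overlap and share reads.

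Among the transcripts of these genes, some exons were found only in those annotated for nonsense-mediated decay or as noncoding, with another balance of reads. There were 27 in 20 genes, 9 of them tested. Their median Ψ in the scrambled group was 0.07 over all 27 and 0.04 over those with at least 10 isoform-specific reads there. Skipping reads were 104 of 234 isoform-specific reads after the mimetic (44.4%, 38.0 to 51.1) and 718 of 1000 after the scrambled oligo (71.8%, 68.9 to 74.6). Thus inclusion reads took a larger share of the sum after the mimetic, and Ψ was higher in 21 of the 27 exons, lower in 5 and equal in 1. Some of the 21, as in MRPL23 and MRPL32, had no inclusion read in either group. In the 23 exons with isoform-specific reads in both groups, the inclusion share was larger after the mimetic in 11, smaller in 4 and equal in 8. Exons of MRPL38 and MRPS25, which overlap other exons of their genes, gave many of the inclusion reads. Without both genes skipping reads were 104 of 160 after the mimetic (95% interval 57.1% to 72.4%) and 718 of 842 after the scrambled oligo (82.7% to 87.6%). Still among these are the 152 nt MRPL33 exon, with 11 and 28 inclusion reads and 0 skipping reads, and the MRPL30 exon. Both also match another annotated gene. Exons with the same flanking exons count the same skipping reads again, as the 20 and 105 nt exons of MRPL42 do (2 and 42). The intervals do not allow for this. Of the 9 tested exons none was called.

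The summed reads of some other classes went the other way. The 8 partly coding exons had 58 skipping reads of 141 after the mimetic (41.1%, 32.9 to 49.7) and 213 of 774 after the scrambled oligo (27.5%, 24.4 to 30.8). Of the 141 and 774, MRPL19 gave 20 and 182 and MRPS33 gave 39 and 271. Both had at most 1 skipping read in a group, so their weight in each sum moves the share. The 4 exons without an annotated match, among them the shorter MRPS11 form, had 11 of 19 (57.9%, 33.5 to 79.7) and 53 of 225 (23.6%, 18.2 to 29.7). The MRPS11 form gave 149 of the 225, all inclusion reads, and 0 reads after the mimetic, so the share of this class depends on it. Ψ was higher after the mimetic in the exons of MRPL48 (0.10 against 0.02) and MRPS28 (0.43 against 0.18). It was lower in that of MRPL38 (0.11 against 0.33). Skipping reads thus took a larger share of the summed reads after the mimetic in both classes. They also did over the 47 tested exons, at 15.9% against 11.2%. Over all tested exons the order was the other way, at 10.9% after the mimetic and 14.9% after the scrambled oligo. Within the 47, the shares were 0.602% and 0.563% for the 30 exons with a scrambled Ψ of at least 0.9. For the other 17 they were 47.6% and 52.5%, smaller after the mimetic. The 30 exons gave 664 and 4082 of the isoform-specific reads, and the 17 gave 319 and 1058. The 12 exons of 5′ UTRs were at 32.7% (20.7 to 46.7) and 40.1% (33.4 to 47.1), with overlapping intervals, and over all 103 exons the shares were 17.9% and 17.5%. A sum over exons also moves with how the reads are spread over them, as the split of the 47 shows. For the annotation classes that part was not tested.

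The read density of the flanking introns is set beside the reads of the 27 decay and noncoding exons, and its part in the result was not tested. Spread over the length of the 27 exons, the density of their flanking introns would give 204 reads after the mimetic and 453 after the scrambled oligo. The inclusion reads were 130 and 282, so they did not exceed the intron level in either group. For the 52 coding exons the intron density would give 361 and 1007 reads, which is 50.5% of the 716 inclusion reads after the mimetic and 21.7% of the 4639 after the scrambled oligo. This density can include reads of other exons within those introns. With the scrambled reads scaled, 22 of the 27 differences were above 0 and the median difference was 0.04 in place of 0.08. Without MRPL38 and MRPS25, 20 of 22 differences were above 0 as deposited and 18 with scaled reads. The median of the 22 went from 0.09 to 0.04. Over all 39120 exons skipping reads were 12.1% of isoform-specific reads after the mimetic and 17.6% after the scrambled oligo.

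**Figure D4:**
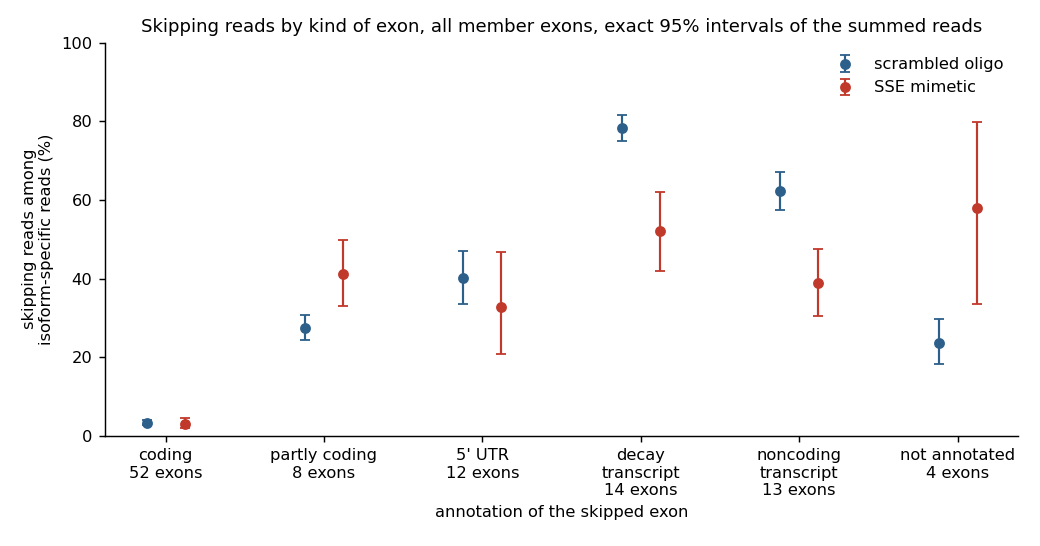
Skipping reads as a percentage of isoform-specific reads (y axis), summed over the exons of each annotation class (x axis, with the number of exons), for the scrambled oligo (blue) and the SSE mimetic (red), with exact 95% binomial intervals that cover counting error only. Coding exons are near 3% in both groups. Exons of decay transcripts are at 52.0% after the mimetic and 78.4% after the scrambled oligo, and those of noncoding transcripts at 38.8% and 62.3%. Partly coding (41.1% and 27.5%) and unannotated exons (57.9% and 23.6%) are higher after the mimetic. Of the 225 scrambled reads of unannotated exons, 149 come from the shorter MRPS11 form, which has 0 after the mimetic. Of the 774 scrambled reads of partly coding exons, MRPL19 and MRPS33 gave 182 and 271, with at most 1 skipping read in a group.

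Several exons occur in forms that share one end. In MRPS11, which encodes a protein of the small subunit platform, the 99 nt form printed above had 18 inclusion reads after the mimetic and 267 after the scrambled oligo. The 79 nt form (chromosome 15, 88472647 to 88472725), which is not an annotated exon and lacks the 20 bases in capitals, had 0 and 149. The shorter form thus had 55.8% as many inclusion reads as the longer one in the scrambled group and none in the SSE mimetic group. Its Ψ was 0.29 (0.01 to 0.96) against 0.98 (0.94 to 1.00) with a Bayes factor of 3.27, and it was not tested for lack of reads. The 20 bases end in AG, the letters that close nearly all introns. This exon was singled out after its values were seen.

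In MRPL52 the pair of forms had like reads in both groups. The 65 nt form had 55 and 150 inclusion reads and the 72 nt form, with the last 7 bases in capitals, had 42 and 124. The shorter form thus had 131% and 121% of the longer form's inclusion reads, and Ψ of the longer form was 0.93 (0.81 to 0.99) against 0.96 (0.92 to 0.99). The 7 bases begin with GTGAG, the letters with which many introns start. In MRPL47 the 86 nt form had 5 inclusion reads after the mimetic and 63 after the scrambled oligo, or 29.4% and 24.6% of those of the 146 nt form. In MRPL22 the 118 nt form had 137% and 154% of those of the 136 nt form. A read over the common part can count for both forms, so these counts are not independent.

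Of the 103 exons 56 were not tested, 38 for lack of reads in the SSE mimetic group alone, 0 in the scrambled group alone and 18 in both. Of these 56, 2 passed the Bayes factor and the size of a call. A 156 nt 5′ UTR exon of MRPL48 (chromosome 11, 73789335 to 73789490) was at 0.51 (0.17 to 0.85) after the mimetic and 0.05 (0.01 to 0.12) after the scrambled oligo, with a Bayes factor of 15.15. It rests on 4 inclusion and 1 skipping reads against 2 and 15. A 113 nt coding exon of MRPL53 (chromosome 2, 74472358 to 74472470), which also lies in CCDC142, was at 0.26 (0.06 to 0.70) against 0.91 (0.77 to 0.99), with a Bayes factor of 18.00. It had 1 inclusion read and 57 shared reads after the mimetic, 33 and 202 after the scrambled oligo, and no skipping read in either. Both differences, 0.46 and -0.65, thus come from 5 isoform-specific reads or fewer in 1 group.

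Other untested exons of mostly skipped kinds were higher after the mimetic on few reads. The 109 nt decay exon of MRPL58, a peptidyl-tRNA hydrolase built into the large subunit, was at 0.54 (0.23 to 0.84) against 0.15 (0.05 to 0.40), from 8 inclusion and 1 skipping reads against 4 and 6. In MRPS2 the 198 nt noncoding exon was at 0.62 (0.26 to 0.89) against 0.17 (0.08 to 0.29), from 4 and 10 inclusion reads. The 20 nt decay exon of MRPL42 was at 0.42 (0.14 to 0.79) against 0.04 (0.00 to 0.10), with 1 inclusion read in each group and 2 and 42 skipping reads. Their Bayes factors were 6.09, 5.72 and 7.11. Some coding exons with intermediate values were close in both groups. MRPL45, which anchors the ribosome to the inner membrane, was at 0.40 (0.16 to 0.71) against 0.41 (0.26 to 0.59). It had 6 and 34 inclusion reads, 19 and 87 shared reads and no skipping read in either group. Its value thus rests on the ratio of inclusion to shared reads. The flanking introns, at their read density, would give 6.48 and 13.3 reads over its length. The 84 nt exon of MRPS18C was at 0.73 (0.37 to 0.97) against 0.76 (0.64 to 0.87), from 8 inclusion and 0 skipping reads against 126 and 11. These exons were chosen after their values were seen.

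The depth of the groups differed unequally between genes. The scrambled group had more isoform-specific reads in all 47 tested exons, with a median ratio to the SSE mimetic group of 4.60 (quartiles 3.16 and 6.54), against 3.79 (2.23 and 5.90) over all tested exons. The ratio was lowest in MRPL38 (1.36 for the 180 nt exon, 11 reads against 15) and highest in MRPL47 (15.4 for the 146 nt exon, 17 against 261). Exons of MRPL42 (15.3), MRPL1 (15.3 for the 82 nt exon) and MRPS11 (14.8) were also at the upper end. By subunit the median was 4.02 for the large and 5.62 for the small subunit. These ratios are not expression levels, since library totals were not used here, and in bulk RNA fewer cells and less RNA per cell cannot be told apart.

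Among other proteins of mitochondrial translation, in lists chosen by function, the tested exons were few. Mitoribosomal proteins with other symbols had 7 tested exons, translation factors and related proteins 22, ribosome assembly and rRNA modification factors 10, and mitochondrial aminoacyl-tRNA synthetases 18. All 4 lists had 0 exons called in either direction, where the background is 3.99%, and with so few exons this cannot be told from it. Their median differences were -0.03, -0.04, -0.10 and -0.07, beside -0.05 for the MRPL and MRPS genes and -0.03 for all tested exons.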

How the data were processed

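RNA sequencing libraries of 4 samples were made with ScriptSeq v2 from DNase-treated total RNA, per the labels' protocols. Reads were aligned with STAR 2.7 and the build was hg38, per the submitters' processing notes. The authors deposited MISO skipped-exon tables, per the file headers: 1 summary per group (46629 events after the mimetic, 47968 after the scrambled oligo) and 1 comparison. The sources used here do not give the MISO version, its event set or how the 2 samples of each group were pooled. The deposited Ψ is a fraction, the Bayes factor a ratio capped by the authors at 1e12, and the deposited difference a score, Ψ after the mimetic minus Ψ after the scrambled oligo. The deposited reads per event are given as other text fields by the authors. All coordinates are 1-based on hg38.

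From these, 1 event per skipped exon was kept (most isoform-specific reads) and exons were matched to GENCODE release 29. Calls used the thresholds given in the text. Fisher's exact test was two-sided, with Benjamini-Hochberg adjustment over all 8228 tested exons (scipy 1.17.1, pandas 2.3.3, numpy 2.4.6, Python 3.11.15). Ψ and difference intervals were also recomputed with a 2-isoform likelihood, uniform prior and reads of 76 nt, the length of 8 tried that came closest to the deposited Ψ (Pearson r across 1029 exons 0.996 and 0.999). Variants scaled the scrambled reads by 0.254 or subtracted intron read density. The code was tested on simulated data. Alternatives are in the closing section.

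The exons named were the 10 genes' exons with the largest difference and the 10 with the most reads (1 per gene, 12 and 10 exons with ties), and every one with a scrambled Ψ between 0.1 and 0.9 (bounds included) and at least 50 reads, 24 in all. Others are said to be chosen later. The members and lists (73 symbols, all found) were chosen with earlier results of these data known. Without molecular identifiers, reads are not separate molecules. Sequences of exons with more than 30 bases of UTR in any coding transcript were not printed.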

Additional observations from a re-analysis of the deposited data

How the results depend on the processing

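Under 11 alternative settings the counts of called exons stayed at 0 higher and 0 lower, except without a read minimum, where 1 was higher (MRPL48) and 1 lower (MRPL53) of 103. These settings were a Bayes factor of at least 100, at least 20 reads per group (20 exons tested), a difference of at least 0.2, all events (50 tested), Fisher's exact test, the inclusion share, exact matches to annotated exons, and the 2-isoform likelihood with the reads as deposited, scaled or with intron density subtracted (41 exons with a value). The other 6 had no isoform-specific read left in a group, and of these MRPL51 met the Bayes factor and size of a call (above 10, at 0.58 against 0.04). The median difference of -0.05 was -0.01 without a read minimum, 0 with the inclusion share and -0.01 with scaled scrambled reads, and between -0.05 and -0.04 in the others. Of 251 alternative values of the 24 named exons, 228 kept their direction, 14 were exactly 0 and 9 changed sign, and none passed the threshold. Of the 14, all but the scaled MRPL22 value came with the inclusion share, in exons without a skipping read. With the inclusion share those that changed sign were the 94 nt form of MRPL11 (-0.03), the 110 nt exon of MRPS35 (0.01), MRPL19 (0.01), MRPL47 (0.02) and the 65 nt form of MRPL52 (0.00175). The unscaled likelihood put the 94 nt form of MRPL11 at -0.00195. With scaled reads they were the 94 nt form of MRPL11 (-0.02), the 65 nt form of MRPL52 (0.02) and MRPL35 (0.02). The cause was not tested. No paired analysis was possible because each group was deposited as 1 pooled read set without replicates, and for the same reason no sample could be left out. The depth of the SSE mimetic group, a median of 17 isoform-specific reads per tested exon against 91, limits what can be detected: 3 of 47 recomputed intervals lay within 0.1 of 0. The class sums without MRPL38 and MRPS25 and the scaled values of untested exons were chosen after seeing the data.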

Other observations

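Among the other genes of mitochondrial translation, a few tested exons came closest to a call, and they were singled out after their values were seen. MRM2, a methyltransferase of mitochondrial ribosomal RNA, had a 923 nt exon (chromosome 7, 2238015 to 2238937) at 0.47 (0.32 to 0.63) after the mimetic and 0.26 (0.20 to 0.32) after the scrambled oligo, with a Bayes factor of 6.95. Its reads were 37 inclusion, 1 skipping and 133 shared against 87, 2 and 552. The 92 nt exon of MRRF, the mitochondrial ribosome recycling factor, was at 0.81 (0.57 to 0.94) against 0.99 (0.97 to 1.00), with 17 inclusion and 1 skipping reads against 259 and 0 and a Bayes factor of 3.17. The 111 nt exon of SLIRP, which with LRPPRC stabilises mitochondrial mRNAs, was at 0.14 (0.04 to 0.32) against 0.01 (0.00 to 0.03). It had 4 inclusion and 11 skipping reads against 1 and 74, for an exact Fisher p of 0.00240 (adjusted 0.126 over all tested exons) and a Bayes factor of 1.75. None of these exons was called, and Fisher's test compares the read pools and not the conditions.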
